A study of Homo sapiens with 12 samples.

Results

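Genes that serve as markers of the fetal cardiac program and of hypertrophic growth were followed through RNA of AC16 cells and of the exosomes these cells released. They were 10 in number, NPPA, NPPB, ACTA1, ANKRD1, ANKRD2, RCAN1, UCHL1, FHL1, FHL2 and SPP1, and were taken by name from the 15414 genes listed in either compartment. All 10 were listed in cells, among 15381 genes, and 6 were listed in exosomes, among 11973 genes. NPPA, NPPB, ACTA1 and SPP1 were not listed in exosomes. AC16 cells are an immortal human line that arose by fusion of ventricular heart muscle cells with transformed fibroblasts, and exosomes are membrane-bound vesicles released into the medium. There were 12 libraries in 4 groups of 3, since both whole cells and exosomes carried either the label Con or the label Ang. What Con and Ang stand for is not written out, no agent, dose or time is given, and nothing says whether libraries of 1 group were grown as separate cultures. The spread behind each p-value is therefore that of the libraries alone and may be technical.

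Before birth the heart muscle expresses natriuretic peptides and skeletal-type actin, and an overloaded adult ventricle is known to switch some of these genes on again. ANKRD1, ANKRD2, FHL1 and FHL2 encode proteins that sit at the sarcomere and can also act in the nucleus, and they are linked to sensing of stretch. RCAN1 is a target and inhibitor of the calcineurin pathway, a classical route to hypertrophic growth, while UCHL1 is a ubiquitin hydrolase and SPP1 encodes osteopontin, a secreted protein of injured tissue.

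Cells held 9202471 to 11212674 gene reads per library, while exosomes held 717263 to 745311 in the Con group and 535442 to 587783 in the Ang group. Cell RNA and exosome RNA were made into libraries with different kits, so compartment and kit cannot be told apart in any comparison between them. Of 12 cardiomyocyte markers, 8 were listed in cells and TNNC1, MYL2, MYL7 and MYH6 were not. The 8 summed to 8.06 to 9.62 CPM (reads per 1000000 gene reads) in the Con cells and 9.12 to 10.9 CPM in the Ang cells, and ACTN2 alone was listed in exosomes. All 10 fibroblast markers, collagens and vimentin among them, were listed in cells, at a summed 8898 to 10548 CPM. The 8 listed cardiomyocyte markers were thus low beside those of fibroblasts. Per kilobase of exon the highest of the 8, PLN at 1.58 CPM, lay below the lowest fibroblast marker, S100A4 at 1.86 CPM. Muscle genes outside the list varied in cells. TTN stood at 79.1 CPM (0.665 per kilobase of exon) and MYPN at 20.3 CPM, but LDB3 at 0.742 CPM and CSRP3 at 0.152 CPM. Endothelial markers summed to 22.1 to 24.3 CPM in the Con cells and 18.1 to 20.3 CPM in the Ang cells. The immune list reached 71.2 CPM in Ang cell replicate 3 against at most 19.8 CPM in the Con cells, and there CD68 alone had 709 reads against 110 to 167 in the other cell libraries, while PTPRC had 25 and CD14 had 23. In exosomes CD68 was the listed immune marker, at 15.8 to 88.9 CPM in the Con and 3.70 to 177 CPM in the Ang libraries. The haemoglobin genes HBA1, HBA2 and HBB had 13, 9 and 7 reads in Con exosome replicate 1, at most 2 each in Con replicate 2 and 0 in the other 4 exosome libraries. The part of these cell types in the members' values was not tested.

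A promoter motif of the contractile genes is shown first because members that carry it lay at opposite ends of the measured levels. Serum response factor (SRF) is known to act on actin and other muscle genes through the CArG box. RefSeq promoter windows of 250 bases before a start site (GRCh38.p14) were found for 9 members, with 29 windows in all, and NPPB was not matched. The CArG box was found on either strand in 6 of these 29 windows, at ACTA1, FHL1, FHL2 and RCAN1, and in 1.16% of all 35116 windows. The 2 windows below are the one before ACTA1 (chr1:229434095-229434344, minus strand) and the most upstream one before FHL2 (chr2:105438530-105438779, minus strand). Both are written 5′ to 3′ along the gene, and capitals mark the CArG box, which ends 87 bases before the ACTA1 start and 75 bases before the FHL2 start.
ACTA1 promoter: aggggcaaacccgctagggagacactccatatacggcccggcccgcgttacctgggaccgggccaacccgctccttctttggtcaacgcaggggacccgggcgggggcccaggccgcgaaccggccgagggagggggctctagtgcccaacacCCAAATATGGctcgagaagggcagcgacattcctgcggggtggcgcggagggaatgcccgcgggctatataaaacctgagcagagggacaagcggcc
FHL2 promoter: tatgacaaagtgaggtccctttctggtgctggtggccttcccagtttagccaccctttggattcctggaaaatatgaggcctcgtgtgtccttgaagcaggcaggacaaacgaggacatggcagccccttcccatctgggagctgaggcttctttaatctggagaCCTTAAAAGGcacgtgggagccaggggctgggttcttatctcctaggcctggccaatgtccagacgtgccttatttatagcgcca
Cells gave 10 ACTA1 reads over 6 libraries and 4567 FHL2 reads, so the same motif stood before the member with the fewest reads and before one of the most heavily read. The M-CAT element (CATTCC or its reverse complement GGAATG), the letters read by TEAD factors, was found before ACTA1, ANKRD1, FHL1 and FHL2, in 4 of the 29 windows and in 11.9% of all windows. The GATA letters (GATAA or TTATC) were found in 11 of the 29 windows, at 6 members, and in 20.4% of all windows. Windows of 1 gene overlap each other, and a match describes the letters only.

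The levels of the 10 markers in cells spanned more than 2 orders of magnitude once divided by exon length. In CPM per kilobase of exon (RPKM), averaged over the 6 cell libraries, UCHL1 stood highest at 14.8 ± 1.32 (SD), above 79.4% of the genes listed. FHL1 followed at 13.1 ± 2.60 RPKM, FHL2 at 11.3 ± 1.80 RPKM and RCAN1 at 7.71 ± 0.563 RPKM. The ranges of each of these 4 genes overlapped that of its neighbour in the order. ANKRD1 stood at 5.34 ± 0.791 RPKM, ANKRD2 at 3.23 ± 0.474 RPKM and NPPA at 1.26 ± 0.443 RPKM. Each of these 3 was separated from the gene above it and from the gene below it by ranges that did not meet. SPP1 at 0.450 ± 0.176 RPKM, NPPB at 0.348 ± 0.279 RPKM and ACTA1 at 0.110 ± 0.117 RPKM closed the order, with overlapping ranges and with ACTA1 above only 6.76% of listed genes. The classical fetal genes NPPA, NPPB and ACTA1 were thus among the 4 lowest members, together with SPP1, and UCHL1 and the LIM-domain genes were the highest. With the length of the longest transcript in place of all exons, the first 4 read FHL1, UCHL1, RCAN1 and FHL2, and the other 6 kept their order.

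**Figure D1:**
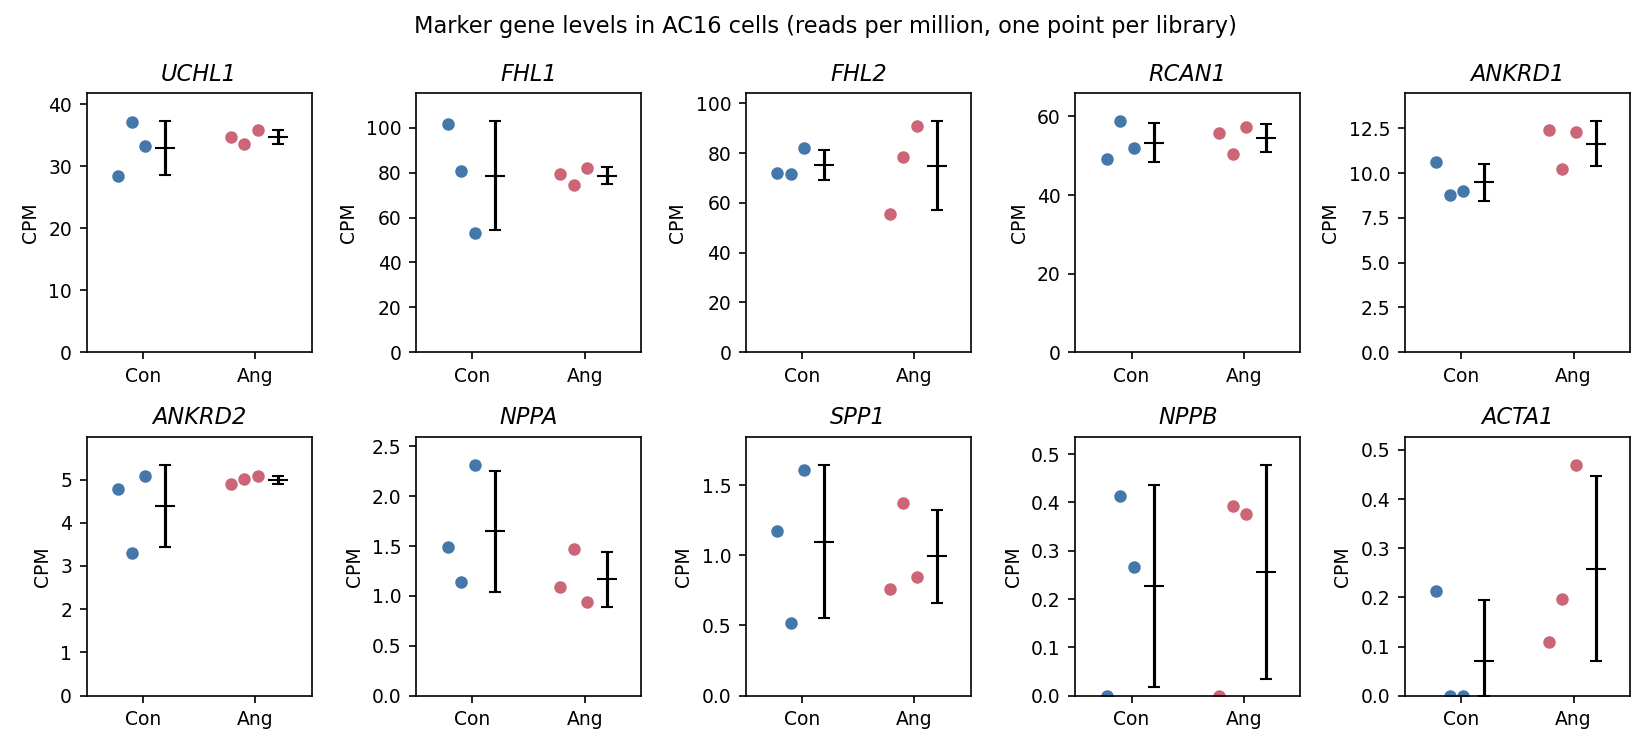
Level of each marker gene in the 3 Con and 3 Ang cell libraries, in CPM on axes that start at 0, with genes in order of their level per length. Points are libraries and the black mark is the mean with its SD, cut at 0; the Con and Ang points of every gene overlap, and NPPB and ACTA1 lie below 0.5 CPM.

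The series' design text speaks of hypertrophic cardiomyocytes, and the comparison of Ang with Con cells asks whether RNA of the markers differed. No member differed past the threshold (an adjusted p of at most 0.05 in edgeR's quasi-likelihood test). Of the 10, 8 passed the filter on low counts and 0 of these 8 were called, against 0% of all 13331 genes tested. At an unadjusted p under 0.05 there were 816 genes and 0 members, and DESeq2 called 60 genes and 0 members. Of the 8 changes 5 were positive, and the median log2 change was 0.02 beside -0.00080 over all genes. In these bulk libraries fewer cells of a type and less RNA per cell cannot be told apart.

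Among the secreted peptides, NPPA encodes the precursor of atrial natriuretic peptide, which lowers blood pressure (ENSG00000175206, chr1:11845709-11848345 on GRCh38). Its reads were 14, 11 and 26 in the Con cells and 10, 15 and 10 in the Ang cells. Con replicate 3 stood highest, and the groups overlapped. The means were 1.65 ± 0.606 CPM and 1.17 ± 0.274 CPM (SD, n = 3 each), a log2 change of -0.51 (SE 0.357, 95% interval -1.39 to 0.37) with an adjusted p of 0.843 in edgeR. Of the NPPA exon length, 25.5% is shared with CLCN6 on the other strand, and the use of strand in counting is not given in the sources used here. NPPB, its neighbour on chromosome 1 and the source of the heart failure marker BNP, had 0, 4 and 3 reads in the Con cells and 0, 4 and 4 in the Ang cells. At 7 against 8 reads the pooled ratio of Ang to Con was 1.16, with a counting interval of 0.367 to 3.75, so a change of several fold was not detectable at this depth. SPP1 encodes osteopontin, a secreted ligand of integrins and CD44, and had 11, 5 and 18 reads in the Con cells and 7, 14 and 9 in the Ang cells. Its log2 change was -0.15 (SE 0.478, interval -1.33 to 1.03), with overlapping groups.

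ACTA1 encodes skeletal alpha-actin, the actin of fetal and stressed ventricle. It had 2, 0 and 0 reads in the Con cells and 1, 2 and 5 in the Ang cells. A read was found in 1 of 3 Con and in 3 of 3 Ang libraries, and the groups overlapped. The pooled ratio of 4.05 had a counting interval of 0.808 to 39.1, and intervals of this kind cover counting error only. Reads of ACTA1 may be shared with its near-identical relatives, and how they were assigned is not given in the sources used here.

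The ankyrin-repeat proteins bind titin in the sarcomere and are known to rise with stretch. ANKRD1 (ENSG00000148677, chr10:90912096-90921276) had 100, 85 and 101 reads in the Con cells and 114, 104 and 131 in the Ang cells. In CPM the Con cells ran from 8.78 to 10.6 and the Ang cells from 10.2 to 12.4, so Con replicate 1 lay above Ang replicate 2 and the groups met. The log2 change of 0.30 (SE 0.139, interval -0.05 to 0.64) had the lowest p among the members, 0.0786 before and 0.823 after adjustment in edgeR. Its interval reaches from a slight fall to a 1.56-fold rise. ANKRD2, the relative typical of slow skeletal muscle, had 45, 32 and 57 reads in the Con cells and 45, 51 and 54 in the Ang cells, with a log2 change of 0.18 (SE 0.195, interval -0.30 to 0.66).

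FHL1 and FHL2 are proteins made of LIM domains, which serve as scaffolds for kinases and transcription factors. FHL1 (chrX:136146702-136211359) stood at 102, 80.8 and 53.3 CPM in the Con cells and at 79.4, 74.5 and 82.0 CPM in the Ang cells. The Con libraries spread widely on both sides of a tight Ang group, and the means of 78.6 ± 24.3 and 78.6 ± 3.77 CPM differed by a log2 change of 0.0011 (SE 0.234, interval -0.58 to 0.58). FHL2 (chr2:105357712-105438513) showed the opposite arrangement, with 72.1, 71.7 and 82.1 CPM in the Con cells and 55.4, 78.5 and 90.8 CPM in the Ang cells. Here the Ang libraries were the spread group, and the log2 change was -0.0069 (SE 0.189, interval -0.48 to 0.46). For both genes the intervals hold changes of up to about 1.5 times in either direction, and which group was the tighter was not tested.

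RCAN1 and UCHL1 gave the narrowest limits. RCAN1, the feedback inhibitor of calcineurin, had 462, 569 and 582 reads in the Con cells and 513, 514 and 609 in the Ang cells. The means were 53.3 ± 4.96 and 54.5 ± 3.61 CPM, a log2 change of 0.03 (SE 0.0967, interval -0.21 to 0.27). A rise of the gene total beyond 1.21-fold thus lay outside the interval. Counts were per gene and RCAN1 has several start sites, so a change in a single transcript was not measured. UCHL1, a ubiquitin hydrolase best known from neurons, had 267, 359 and 373 reads in the Con cells and 318, 342 and 382 in the Ang cells. Its log2 change was 0.08 (SE 0.114, interval -0.21 to 0.36), and the groups overlapped.

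Genes around the markers in their pathways were followed as 8 lists of 74 genes in all. In cells 64 of the 74 could be tested and 0 were called. In the natriuretic list, 0 of 7 were called, and its most abundant members MME, the peptide-degrading neprilysin, and FURIN had log2 changes of -0.0063 and -0.12. In the calcineurin list, 0 of 14 were called and 8 were positive, with DYRK1A at 0.11 and the largest change at CABIN1, -0.44 (SE 0.115). All 8 tested genes of the actin and SRF list had a positive change and 0 were called, with ACTB at 0.03 and ACTG1 at 0.08. The largest changes there were those of ACTA2 at 0.73 (SE 0.417) and ACTG2 at 0.67 (SE 0.141). In the list of YAP and TEAD genes, 0 of 10 were called and 7 were positive, with the YAP targets CCN1 and CCN2 at 0.05 and -0.04. The largest change there was that of TEAD1 at 0.76 (SE 0.334). In the list of osteopontin receptors, 0 of 8 were called, with ITGB1 at -0.02 and CD44 at 0.05. The remaining lists gave 0 calls of 8 ankyrin-repeat and LIM partners, 0 of 6 cardiac transcription factors and 0 of 3 ubiquitin hydrolases. MEF2D, a cardiac transcription factor, had the largest change of the 64, 1.25 (SE 1.02). Its reads were 195, 161 and 11 in the Con cells and 144, 181 and 608 in the Ang cells.

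**Figure D2:**
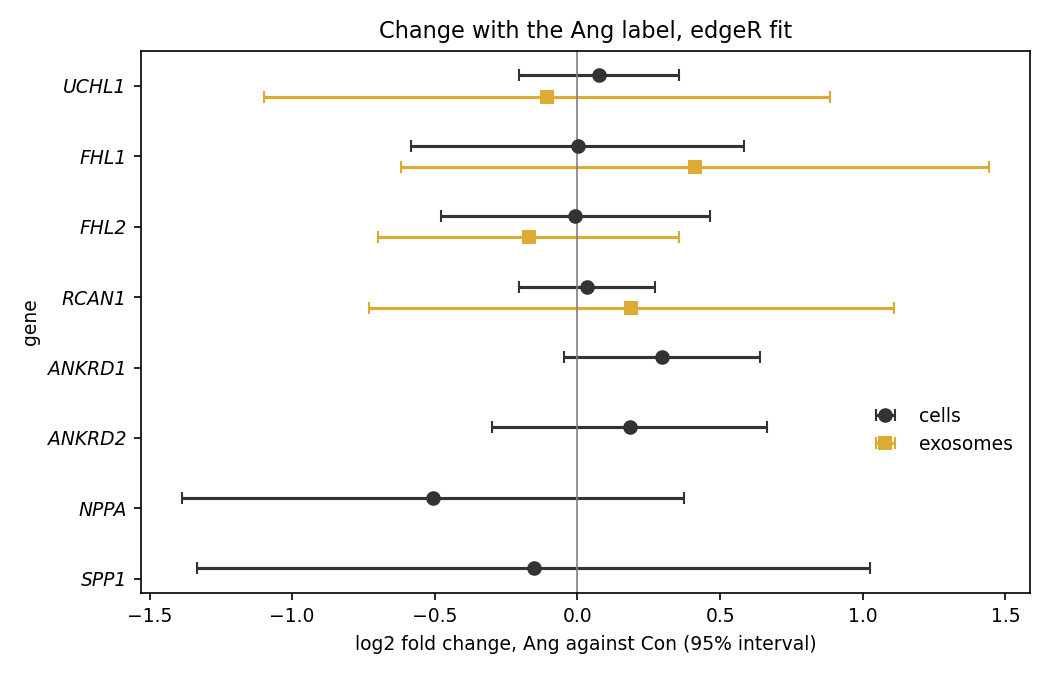
Log2 fold change of Ang against Con for each marker gene that passed the filter on low counts, with 95% intervals, in cells (circles) and exosomes (squares). Every interval includes 0, and the narrowest is that of RCAN1 in cells, from -0.21 to 0.27.

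In exosomes the same question could be tested for 4 members. Of these 4, 0 were called, against 0.012% of all 8327 genes, which is 1 gene; 316 genes and 0 members had an unadjusted p under 0.05, and DESeq2 called 16 genes and 0 members. The median log2 change of the 4 was 0.04 beside -0.0021 over all genes. FHL2 had 149, 145 and 191 reads in the Con exosomes and 91, 131 and 107 in the Ang exosomes, which were sequenced less deeply. Scaled, these were 205, 201 and 274 CPM against 168, 230 and 205 CPM, with overlapping groups and a log2 change of -0.17 (SE 0.236, interval -0.70 to 0.36). FHL1 stood at 106, 66.7 and 55.9 CPM in the Con exosomes and at 75.9, 56.1 and 173 CPM in the Ang exosomes. Ang replicate 3 alone lay above all Con libraries, and the log2 change of 0.41 (SE 0.462, interval -0.62 to 1.44) became -0.20 without it. UCHL1 stood at 67.4, 37.5 and 48.7 CPM against 29.6, 64.9 and 48.0 CPM, a log2 change of -0.11 (SE 0.444, interval -1.10 to 0.89). RCAN1 stood at 38.5, 58.3 and 40.1 CPM against 68.5, 47.4 and 40.3 CPM, a log2 change of 0.19 (SE 0.412, interval -0.73 to 1.11). Groups overlapped for both, and their intervals allow changes of about 2 times.

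The ankyrin-repeat markers were at the edge of detection in exosomes. ANKRD1 had 6, 4 and 12 reads in the Con exosomes and 0, 6 and 6 in the Ang exosomes, a pooled ratio of 0.716 with a counting interval of 0.323 to 1.51. ANKRD2 had 0 reads in 5 of the 6 libraries and 11 in Ang replicate 2, so its presence in exosomes rests on 1 library. The cell level of ANKRD2, carried over to the depth of the Con exosomes, would have given 9.72 reads where 0 were listed. Set against a floor of 3 counts over that group, 0 reads would put ANKRD2 at least 3.24-fold lower than in the Con cells, by raw library totals. This floor covers counting error only, and the edgeR fit within Con did not call ANKRD2 (adjusted p 0.122). In the Ang group the cell level would have given 8.39 reads, beside the 11 reads of replicate 2.

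**Figure D3:**
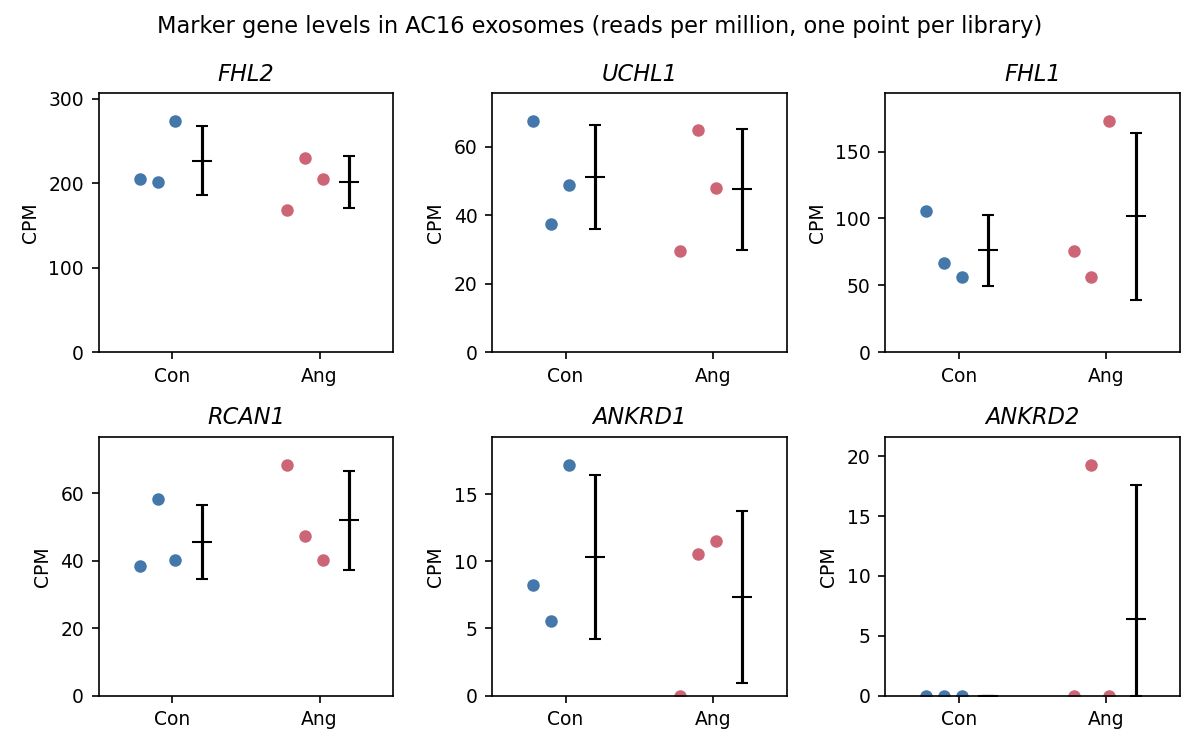
Level of the 6 marker genes listed in exosomes, in CPM on axes that start at 0, for 3 Con and 3 Ang libraries. Points are libraries and the black mark is the mean with its SD, cut at 0; FHL2 lies above 160 CPM in every library, while ANKRD2 is at 0 in 5 of 6.

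For the 4 members with no exosome row, depth decides what can be said. No gene was listed in a compartment with fewer than 7 reads over its 6 libraries. At its cell level, NPPA would have given 5.53 reads over all 6 exosome libraries (counting interval 4.42 to 6.83) and SPP1 would have given 4.12 (3.17 to 5.26). NPPB would have given 0.965 reads and ACTA1 0.643. All 4 expected counts lie below 7 reads, so a level equal to that of the cells could also have left these genes unlisted, and their absence shows no difference at this depth. For NPPA and SPP1 an equal level could also have reached the listing minimum by counting error.

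The order of the markers per length was not the same in both compartments. In exosomes the order per length was FHL2 at 32.3 ± 5.31 RPKM, UCHL1 at 21.6 ± 6.50, FHL1 at 14.8 ± 7.51, RCAN1 at 6.99 ± 1.73, ANKRD1 at 4.47 ± 2.94 and ANKRD2 at 2.22 ± 5.43 (SD, n = 6). Neighbours in this order had overlapping ranges. FHL2, which stood behind UCHL1 and FHL1 in cells, was first in exosomes, above 89.3% of the genes listed there. The members together took 0.0239% to 0.0286% of gene reads in the cell libraries and 0.0333% to 0.0465% in the exosome libraries, ranges that did not meet. FHL2 alone gave 814 of these exosome reads, more than all other members together, so the share does not speak for the set.

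Tested across all 12 libraries, FHL2 and UCHL1 were higher in exosomes than in cells. Of the 6 members tested, 2 were called, both higher, and 0 were called lower; of all 11811 genes, 37.1% were called, 17.6% higher and 19.5% lower. Calls were thus common among all genes. With all 12 libraries on 1 scale, FHL2 ranged from 177 to 287 CPM in exosomes and from 51.9 to 85.3 CPM in cells. The groups did not overlap, and the mean was 224 ± 36.8 CPM (SD, n = 6) in exosomes against 70.2 ± 11.3 CPM (n = 6) in cells. The log2 change was 1.67 (SE 0.161, interval 1.33 to 2.02), which is 3.19-fold, with an adjusted p of 7.08e-06 in edgeR's quasi-likelihood test. Its change lay at the 95.2 percentile of all genes. FHL2 passed within the Con libraries (log2 change 1.76, SE 0.227, adjusted p 0.000205 in edgeR) and within the Ang libraries (1.58, SE 0.227, adjusted p 0.00043 in edgeR).

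UCHL1 averaged 51.7 ± 15.5 CPM in exosomes, from 31.1 to 70.5, and 31.6 ± 2.81 CPM in cells, from 26.5 to 34.4. The lowest exosome library, Ang replicate 1, lay inside the cell range and the others lay above it. The log2 change was 0.71 (SE 0.219, interval 0.24 to 1.19), or 1.64-fold, with an adjusted p of 0.0221 in edgeR, at the 80.7 percentile of all genes. This call was lost with raw library totals (adjusted p 0.0859), without Con exosome replicate 1, the library with the haemoglobin reads (0.0531), and without Ang exosome replicate 2 (0.0549), all in edgeR. It did not pass within the Con libraries (log2 change 0.81, adjusted p 0.0803 in edgeR) or within the Ang libraries (0.62, adjusted p 0.183 in edgeR), while DESeq2 called it in both (adjusted p 0.0026 and 0.0292). Within Con 1 of 6 members was called, against 20.4% of all genes, and within Ang 1 of 6, against 21.8%; both calls were FHL2.

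The other members listed in both compartments gave no call. FHL1 averaged 93.1 ± 46.8 CPM in exosomes and 73.4 ± 14.5 CPM in cells, a log2 change of 0.33 (SE 0.274, interval -0.27 to 0.92). RCAN1 averaged 51.2 ± 12.8 CPM in exosomes and 50.3 ± 3.66 CPM in cells, a log2 change of 0.02 (SE 0.186, interval -0.38 to 0.43). Its sign turned to -0.19 with raw library totals. ANKRD1 averaged 9.26 ± 6.08 CPM in exosomes and 9.87 ± 1.49 CPM in cells, a log2 change of -0.11 (SE 0.461, interval -1.10 to 0.89). ANKRD2 is given by its reads above, since its fitted change rests on 1 library: without Ang exosome replicate 2 it was called lower in edgeR, with an adjusted p of 0.00465. The median of all genes moved with the scaling, from -0.15 in the fit used to -0.36 with raw library totals. Relative to that median FHL2 stood at 1.82 under either scaling, UCHL1 at 0.86, FHL1 at 0.47, RCAN1 at 0.17 and ANKRD1 at 0.04. Scaling moves all genes by nearly the same amount, so this sameness is built in and lends no support.

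**Figure D4:**
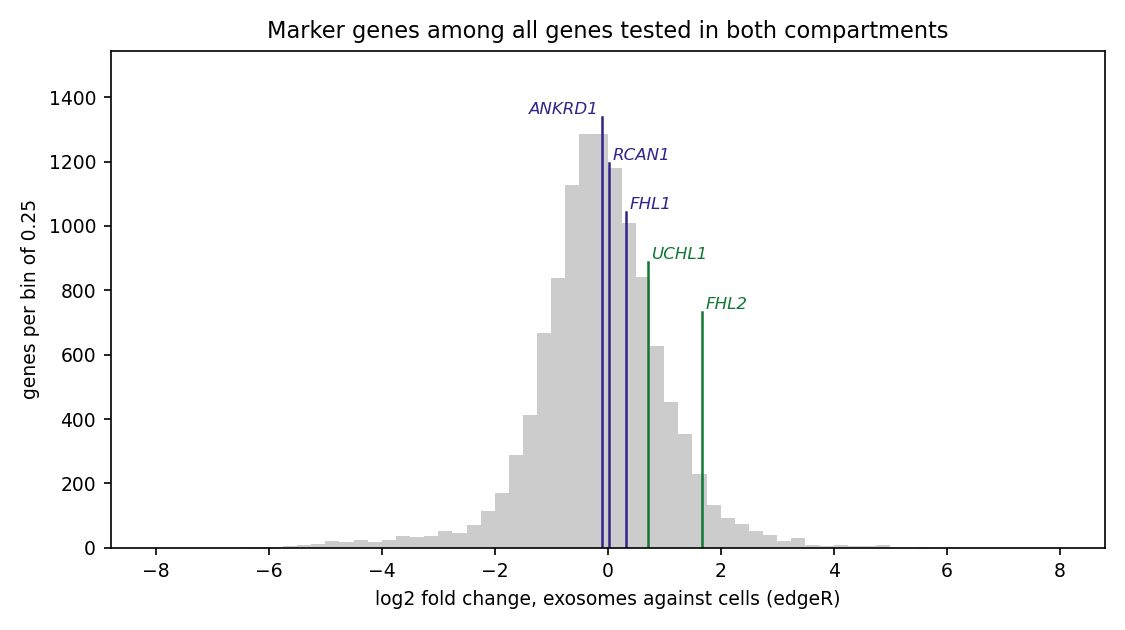
Distribution of the log2 fold change of exosomes against cells over all 11811 genes tested, in bins of 0.25, with vertical lines at 5 marker genes (line heights carry no value) and ANKRD2 left out because it rests on 1 library. FHL2 (green, called) lies in the right tail at 1.67, above 95.2% of genes, while UCHL1 (green, called) at 0.71 and ANKRD1, RCAN1 and FHL1 (blue, not called) lie within the bulk.

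A ratio taken inside each library does not depend on how libraries are scaled. FHL2 reads per FHL1 read were 0.708, 0.887 and 1.54 in the Con cells and 0.698, 1.05 and 1.11 in the Ang cells. In exosomes they were 1.94, 3.02 and 4.90 in the Con group and 2.22, 4.09 and 1.19 in the Ang group. Of the 6 exosome libraries 5 lay above every cell library, and Ang replicate 3, the library with the high FHL1 count, lay inside the cell range. The mean was 2.89 ± 1.40 (SD, n = 6) in exosomes and 0.999 ± 0.315 (n = 6) in cells, and the geometric means differed by 2.71-fold. This pair was chosen after its values were seen and is given with no test. The 2 mRNAs, which encode proteins of the same family, thus stood at a median of 0.970 to 1 in cell reads and 2.62 to 1 in exosome reads.

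**Figure D5:**
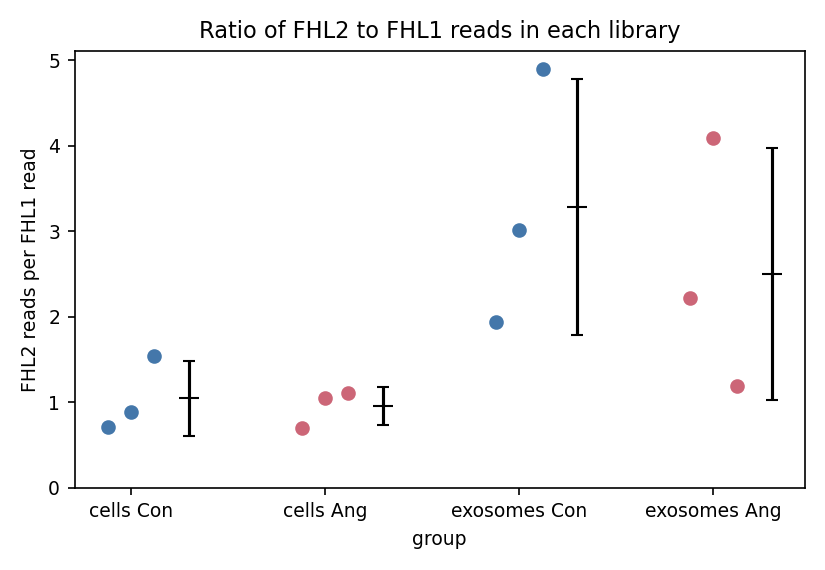
FHL2 reads divided by FHL1 reads in each of the 12 libraries, by group, on an axis that starts at 0. Points are libraries and the black mark is the group mean with its SD (n = 3); cell libraries lie between 0.698 and 1.54 and exosome libraries between 1.19 and 4.90.

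Whether the change from Con to Ang differed between compartments was tested for the 6 members listed in both. Of these, 0 were called, against 0.0254% of all 11811 genes, which is 3 genes; 971 genes had an unadjusted p under 0.05, and DESeq2 called 368. ANKRD2 alone among the members had an unadjusted p under 0.05, and it rests on 1 library. The difference, exosome change minus cell change on the log2 scale, was 0.40 (SE 0.547) for FHL1, -0.18 (SE 0.314) for FHL2 and -0.19 (SE 0.435) for UCHL1. It was 0.14 (SE 0.372) for RCAN1 and -0.79 (SE 0.921) for ANKRD1. None of these intervals excluded 0.

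Pathway neighbours of the markers were also set against the compartments. Of the 59 genes of the 8 lists that could be tested, 10 were called higher in exosomes, 16 lower and 33 did not pass, to be read against 17.6% of all genes called higher and 19.5% called lower. The lists were chosen for the markers' pathways with earlier results of these data known. Among partners of the ankyrin-repeat and LIM proteins, 2 of 7 were higher and 2 lower, with a median log2 change of 0.04 beside -0.15 over all genes. MYPN and PALLD, which encode the Z-disc and actin scaffold proteins myopalladin and palladin, were higher by log2 changes of 1.87 (SE 0.294) and 2.49 (SE 0.440). PALLD reads were uneven, at 240, 265 and 195 in the Con exosomes and 36, 304 and 179 in the Ang exosomes. In cells they ran from 382 to 1081. TTN, which encodes titin, the giant spring to which ANKRD1 binds, was lower at -2.74 (SE 0.188), and PDLIM5 stood at -0.72 (SE 0.177). In the actin and SRF list 4 of 7 were higher and 1 lower, with a median of 0.77. ACTB and ACTG1, the cytoplasmic actins, were higher by 0.73 (SE 0.0381) and 0.77 (SE 0.148), and ACTG2, a smooth muscle actin, by 2.62 (SE 0.322). MYOCD, the SRF cofactor myocardin, was higher by 3.18 (SE 0.728), on 4, 30 and 0 reads in the Con exosomes and 2, 24 and 6 in the Ang exosomes.

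In the list of YAP and TEAD genes 3 of 10 were higher and 2 lower, with a median of 0.30. The transcription factors TEAD4 and TEAD1 were higher by 2.59 (SE 0.301) and 1.55 (SE 0.224), while CCN1 and CCN2, secreted matricellular proteins and YAP targets, were lower at -1.70 (SE 0.122) and -1.66 (SE 0.145). Of the osteopontin receptors 0 of 7 were higher and 5 lower, with a median of -0.67. Among the lower ones were the integrin chains ITGB1 at -0.69 (SE 0.0853), ITGAV at -0.95 (SE 0.174) and ITGA5 at -0.67 (SE 0.146), and CD44 at -0.61 (SE 0.157). In the calcineurin list, the pathway of RCAN1, 0 of 13 were higher and 3 lower, with a median of -0.19. Among these were the kinases DYRK1A at -1.57 (SE 0.252) and GSK3B at -0.64 (SE 0.202), which phosphorylate NFAT. In the natriuretic list 0 of 6 were higher and 2 lower, with a median of -0.48. These 2 were MME at -1.56 (SE 0.195) and PDE5A, a cyclic GMP phosphodiesterase, at -1.44 (SE 0.402). Of the cardiac transcription factors MEF2D was higher at 2.02 (SE 0.577) and MEF2A lower at -0.65 (SE 0.184), with 4 of 6 not passing. Cell reads of MEF2D ran from 11 to 608 across libraries. The relatives of UCHL1 gave 0 calls of 3, with BAP1 at -0.45 (SE 0.299) and UCHL5 at -0.43 (SE 0.217), beside 0.71 for UCHL1.

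The genes nearest to a marker in pattern over the 12 libraries were taken by the smallest root mean square difference of centred log2 CPM. For FHL2 these were DDR2 (0.159), a collagen receptor kinase, EPS8L2 (0.160) and RPL29 (0.188), a ribosomal protein gene. For RCAN1 they were PDLIM1 (0.140), GPC1 (0.158) and CENPX (0.160), and for UCHL1 they were PLEKHO1 (0.160), KHSRP (0.189) and FKBP4 (0.195). The nearest genes to FHL1 lay farther off, with CAMK2D at 0.251, KAZN at 0.257 and MAP1S at 0.281. Libraries of 1 compartment share a kit and a range of depth, and these values are a description.

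A circular RNA was listed at 1 of the 10 genes. Among 5179 circular RNAs in cells and 939 in exosomes, 1 lay within FHL2, at chr2:105375561-105380473 on the minus strand, and it was listed in cells only. It spans 4913 bases, neither end falls on an annotated exon boundary, and it had 2 junction reads in Con replicate 2 and 4 in Ang replicate 3, with 0 in the other 4 cell libraries.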

How the data were processed

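Gene counts were deposited by the authors as whole-number reads per Ensembl gene, per the file headers, and circular RNA files hold counts of back-splice junction reads. The submitters' processing notes name GRCh38, HISAT2 and StringTie, without versions. For the counter, its use of strand, the annotation and the circular RNA caller the entry is: not given in the sources used here. Coordinates and exon lengths came from GENCODE release 29 on GRCh38, and promoter sequences from RefSeq.

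Whole tables were fitted with edgeR 4.0.16 in R 4.3.3 (quasi-likelihood F test, TMM scaling, robust spread, filterByExpr with a minimum count of 10 and total of 15) and adjusted by Benjamini-Hochberg over all genes tested, with a threshold of 0.05. Ang was compared with Con in the 6 libraries of a compartment, and exosomes with cells in all 12. The edgeR fits were also run on counts simulated with the spread fitted to these data. That run checks the code and does not show how the tests hold on real libraries. Alternatives were DESeq2 1.42.0, other scaling, no filter, a replicate term, single libraries left out and, added after the data were seen, the FHL2 to FHL1 ratio without each library. CPM were scaled within a compartment unless all 12 libraries were on 1 scale. Members and lists were chosen with earlier results of these data known. All members are named. The lists are given only for Ang against Con in cells and for exosomes against cells. In cells, genes with the largest changes of some lists are named as well, and some lists are given by their counts. Otherwise, where genes of a list are named, these are up to 4 called genes by smallest p, or the 2 most abundant where none was called. Also named are the 3 nearest genes in pattern of the 4 most abundant members. A gene that this rule would name is not reported here.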

Additional observations from a re-analysis of the deposited data

How the results depend on the processing

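No member was called between Ang and Con under any alternative run, and FHL2 was called higher in exosomes under all 17, with log2 changes of 1.46 to 1.78. Low exosome depth limits ANKRD1 and ANKRD2 there, and the 4 unlisted members; the causes of the changes below were not tested unless fewer samples or genes made them.

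Genes called between Ang and Con in cells were 60 with DESeq2 and 0 to 3 when 1 library was left out. In exosomes they were 3 without the low-count filter, 16 with DESeq2, 22 in the fit to all 12 libraries and 1 to 4 when 1 library was left out. DESeq2 called 4177 genes and 3 members within Con, 4127 genes and 2 members within Ang, and 368 genes for the difference between compartments. With 1 library left out, calls within Con were 1565 to 2889 genes and 1 to 3 members, and calls for the difference were 1 to 17 genes. Within Con, UCHL1 passed with DESeq2 and without Con exosome replicate 2 (adjusted p 0.0487), Ang exosome replicate 1 (0.0394) or Ang exosome replicate 2 (0.0491), the last 3 in edgeR. Members called between exosomes and cells fell to 1 with raw library totals and ranged from 1 to 2 with 1 library left out.

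Signs turned only where no call stood. In cells FHL1 was -0.0018 without the filter and FHL2 0.00091 in the fit to all 12 libraries (log2). With 1 library left out, Ang against Con in cells ranged from -0.22 to 0.23 for FHL1, -0.17 to 0.17 for FHL2, -0.48 to 0.24 for SPP1, -0.0204 to 0.17 for UCHL1 and -0.0225 to 0.11 for RCAN1. In exosomes it ranged from -0.20 to 0.73 for FHL1, -0.40 to 0.14 for UCHL1 and -0.063 to 0.39 for RCAN1. Exosomes against cells, with raw library totals, gave RCAN1 -0.19, RCAN1 within Ang -0.12 and FHL1 within Con -0.0876. With 1 library left out it ranged from -0.10 to 0.0918 for RCAN1 and -0.40 to 0.18 for ANKRD1. ANKRD1 and ANKRD2 had values in 12 settings of the fit to both compartments, against 18 for RCAN1. Their ranges here and below thus cover only part of the runs with 1 library left out. Within Con the ranges were -0.19 to 0.38 for FHL1, -0.27 to 0.0577 for RCAN1 and -0.28 to 0.58 for ANKRD1. Within Ang they were -0.10 to 0.81 for FHL1, -0.16 to 0.24 for RCAN1, -0.96 to 0.072 for ANKRD1 and -7.85 to 1.14 for ANKRD2. The difference between compartments ranged from -0.22 to 0.71 for FHL1, -0.50 to 0.0511 for UCHL1, -0.11 to 0.36 for RCAN1 and -0.18 to 8.80 for ANKRD2, whose lowest values came without Ang exosome replicate 2, the library with all its reads.

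Whether replicate numbers pair the samples is not given. Same-numbered Con and Ang libraries had deviations from their group mean correlated at -0.0438 to -0.0157 in cells and -0.0171 to -0.00613 in exosomes. With so few libraries a group, these values cannot settle whether the samples were paired. With a replicate block, genes called were 0 in exosomes and 1 for the difference between compartments, 2 members were called within Con, UCHL1 had an adjusted p of 0.0698 between exosomes and cells in edgeR, and ANKRD2 was called lower there (adjusted p 0.0196) and within Ang turned to -3.65.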
